A study of Caenorhabditis elegans with 8 samples.

Results

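The genes described here are 10 cuticle collagen genes of Caenorhabditis elegans named for the body shape of their mutants: bli-1, bli-2 and bli-6 (blister), rol-1 and rol-6 (roller), sqt-1, sqt-2 and sqt-3 (squat), and dpy-13 and dpy-17 (dumpy). They were chosen by name, and all 10 were found by symbol among the 19983 protein-coding genes of the RefSeq gene table of assembly WBcel235. The series is an RNA immunoprecipitation (RIP-seq) of young adults grown at 25 °C on standard NGM plates and crosslinked with 2% formaldehyde for 30 min. Worms of strain WD656, in which allele on49 of F22D6.2 on chromosome I encodes MSTR-1::3xFLAG, gave a RIP and an input. Wild-type N2 worms, which have no FLAG tag, gave the same pair, so there were 4 groups of 2 biological replicates. All of these libraries were made from lysate of whole worms, so no tissue was separated.

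The cuticle is the worm's exoskeleton, a layered extracellular matrix that the epidermis secretes anew at each moult. Cuticle collagens are short proteins built around Gly-X-Y repeats, which fold into triple helices and are then crosslinked. Different collagens take different places: some line the circumferential furrows, some lie in the annuli between them, and BLI-1, BLI-2 and BLI-6 form the struts that join the layers of the adult cuticle. Loss or alteration of a collagen changes body shape, giving short fat (dumpy or squat), helically twisted (roller) or fluid-filled (blister) animals.

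The values come from 1 deposited list, which holds 1207 regions that the authors called specific to tagged worms. All 1207 are named after RIP replicate 2 of WD656 and have a single set of values. There is therefore no replicate error and no test between libraries, and the depth per library is not known. For each region the authors' table gives a fold, which is the treatment over the control level at the summit of the region, with a −log10 p and a −log10 q. The number of reads piled up at the summit (the pileup) and the control level were solved from the fold and the p-value. Over all regions the authors' fold had a median of 2.10 (range 1.11 to 5.66). The median pileup was 55 reads (26 to 3128), and the median control level 23.0 reads (13.5 to 2215). Many regions share the lowest control level of 13.5 reads, and whether it is a floor or a local reading is not known.

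Of the 10 genes, 3 carried a region, dpy-13, bli-6 and rol-1, and 7 carried none. Over all protein-coding genes, 954 of 19983 (4.77%) carried a region. The 3 genes with a region were 1 of 3 blister genes, 1 of 5 roller and squat genes and 1 of 2 dumpy genes. By chromosome they were 1 of the 6 members on II and 2 of the 4 on III, IV and V. Each of the 3 carried a single region, which lay wholly inside the gene and touched no other annotated gene, coding or non-coding.

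dpy-13 (F30B5.1), whose product is a collagen of the annuli, had the highest fold of the 3. The gene lies on chromosome IV at 4235617 to 4236710 (WBcel235) and spans 1094 bp. Its region, at 4235812 to 4236632, was 821 bp wide and covered 75.0% of the gene. At the summit, position 4236414, 1084 reads were piled up (exact 95% Poisson interval 1020 to 1151) over a control level of 532. The authors' fold was 2.03, and the interval on the pileup alone corresponds to folds of 1.92 to 2.16. The authors' −log10 q of 94.98 was the 11th highest of the 1207 regions, while the fold ranked 665th. dpy-13 was therefore among the best supported regions of the list and had a fold close to the median.

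bli-6 (Y73B6BL.34), the only strut collagen gene with a region, lies on the same chromosome IV at 6377065 to 6378168 and spans 1104 bp. Its region, at 6377120 to 6378037, was 918 bp wide and covered 83.2% of the gene. The summit at 6377768 held 911 reads (interval 853 to 972) over a control level of 541. The authors' fold was 1.68 (1.58 to 1.80 over the interval of the pileup) and the −log10 q 45.3, the 44th highest of the list. The control levels of bli-6 and dpy-13 were nearly equal, and the pileup of bli-6 was lower by more than the counting intervals. Those intervals cover counting error within 1 library, with each read taken as an independent count. They leave out copied reads, the error of the control level and any spread between worms.

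rol-1 (Y57A10A.11), whose mutants roll as adults, lies on chromosome II at 12172573 to 12176069 and is the longest of the 10 genes, with a span of 3497 bp. Its region, at 12173291 to 12175153, was also the widest of the 3, at 1863 bp, and covered 53.3% of the gene. The summit at 12175129 lay 24 bp from the edge of the region and held 219 reads (interval 191 to 250.0) over a control level of 131. The authors' fold was 1.67 (1.46 to 1.90) with a −log10 q of 10.2. The fold of rol-1 was close to that of bli-6, from far fewer reads.

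**Figure D1:**
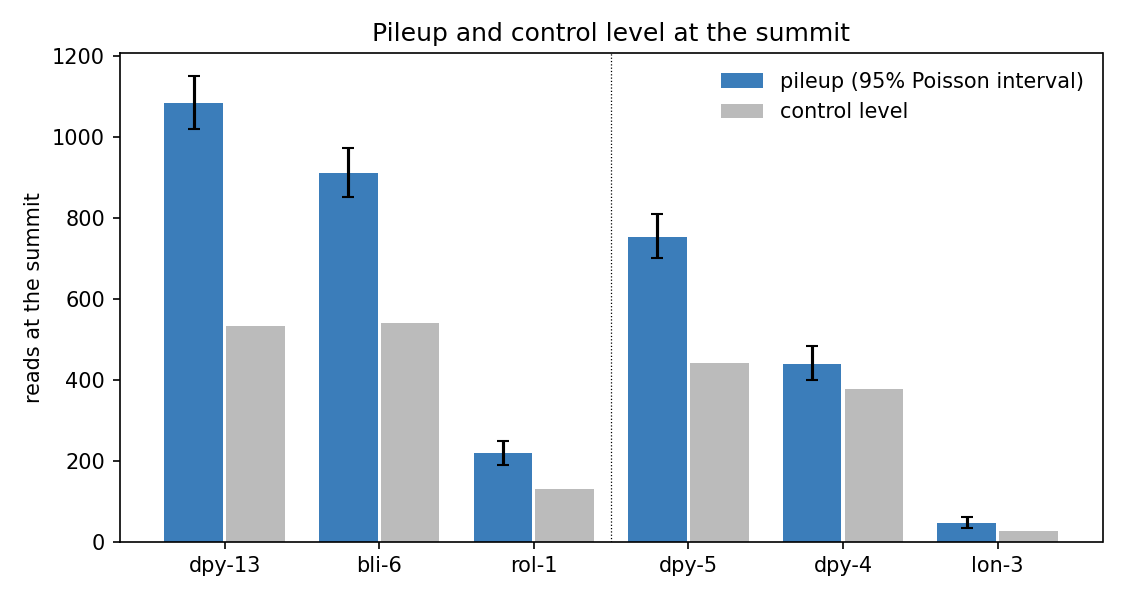
Reads piled up at the summit (blue, with exact 95% Poisson intervals) and control level (grey) of the regions in dpy-13, bli-6 and rol-1, left of the dotted line, and in the shape-named collagen genes dpy-5, dpy-4 and lon-3, right of it. The y axis is in reads. dpy-13 and bli-6 stand over nearly equal control levels, 532 and 541 reads, with pileups of 1084 and 911.

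Along the genes, all 3 summits lay nearer the end with the higher coordinates. The summit was at 72.9% of the span in dpy-13, 63.7% in bli-6 and 73.1% in rol-1, counted from the lower-coordinate end. In all regions over a single protein-coding gene the median was 49.8%. Strands could not be separated in that median, so a shift toward either end of the transcript would cancel out in it. It is therefore no yardstick for the 3 summits. The gene table gives no strand and no exons, so these positions cannot be read as nearer the start or the end of the transcript, or as exon or intron. In dpy-13 the region began 195 bp inside the gene and ended 78 bp before its other end. In bli-6 these distances were 55 and 131 bp. In rol-1 they were 718 and 916 bp, so all 3 regions stopped short of both ends and the uncovered ends were longest in rol-1.

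**Figure D2:**
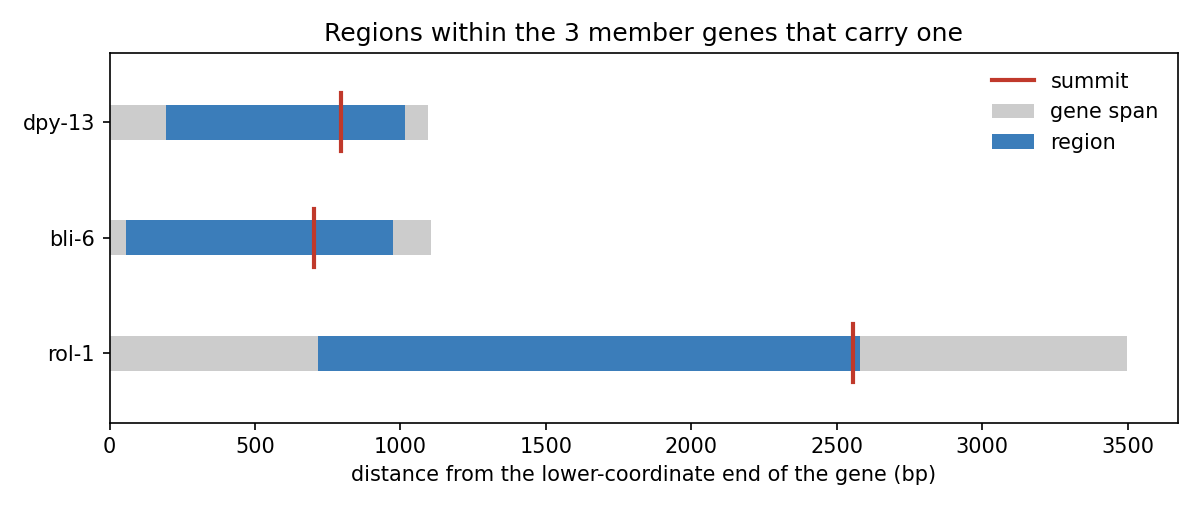
Gene spans (grey), regions (blue) and summits (red line) of dpy-13, bli-6 and rol-1. The x axis is the distance in bp from the lower-coordinate end of each gene, and the 3 genes are drawn to 1 scale. The regions cover 75.0%, 83.2% and 53.3% of the spans.

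The lowest fold in the list differed with coverage. It was 1.501 among regions near the control level of lon-3 (26.8 reads), 1.25 near that of rol-1 and 1.16 near that of dpy-13. Each fold was therefore set beside regions of similar coverage, whose control level was within a factor of 1.5. dpy-13 ranked 6th by fold of 67 such regions, whose median fold was 1.57 (1.16 to 2.51). bli-6 ranked 20th of 68, with a median of 1.58. rol-1 ranked 50th of 92, with a median of 1.70 (1.25 to 2.91). At its own coverage, then, dpy-13 was near the top, bli-6 above the middle and rol-1 at about the middle. Of regions in genes of the col class, the numbered cuticle collagens, 2 of the 21 at the coverage of dpy-13 had a higher fold, against 8 of 22 at that of bli-6 and 11 of 14 at that of rol-1. These ranks describe 1 library and carry no test.

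**Figure D3:**
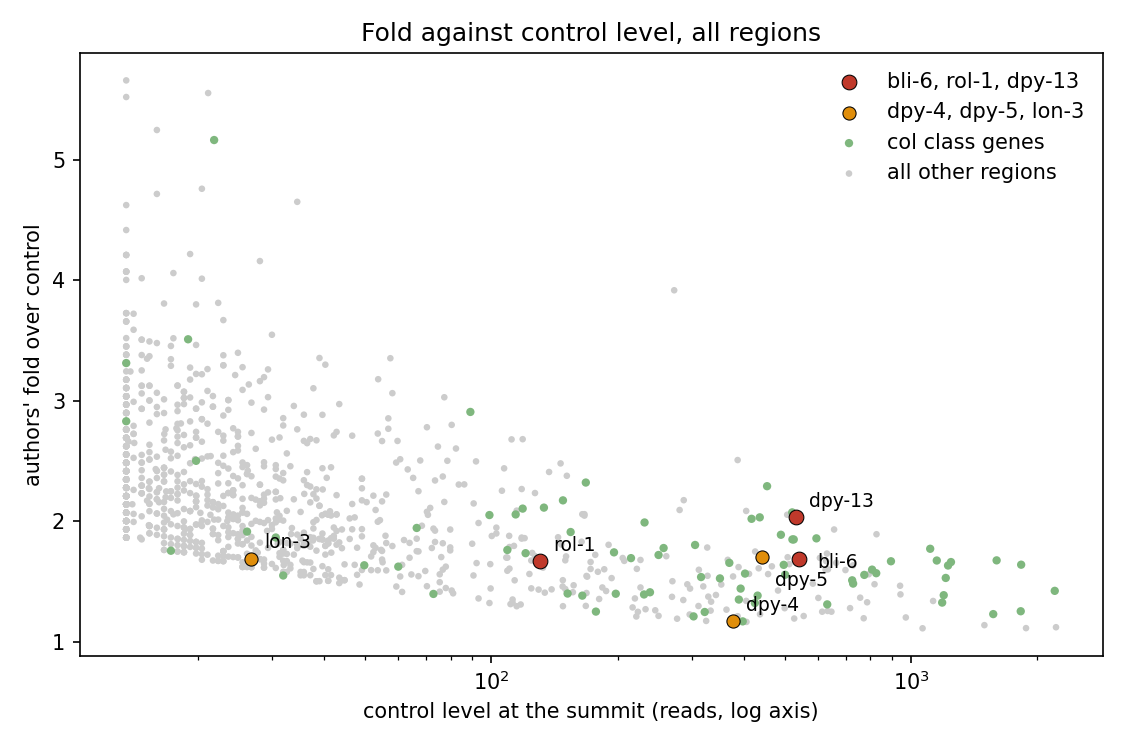
The authors' fold (y axis) against the control level at the summit in reads (x axis, log scale) for all 1207 regions. Regions in dpy-13, bli-6 and rol-1 are red, those in dpy-4, dpy-5 and lon-3 orange, those in col class genes green and all others grey. dpy-13 lies at the upper edge of the regions near a control level of 532 reads, while rol-1 lies amid the regions around 131 reads.

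The 7 genes without a region were bli-1, bli-2, rol-6, sqt-1, sqt-2, sqt-3 and dpy-17. Their spans ran from 1041 bp in bli-2 to 3197 bp in bli-1, with a median of 1162 bp, so they include genes about as long as dpy-13 and bli-6. The list holds only regions that passed the authors' threshold and were called specific to the tagged strain. A gene without a region is therefore not shown to lack RNA in the RIP. The numbering of the regions gives some further information. It follows the genome order in all 1207 regions, and the highest number is 1464, which leaves 257 numbers (17.6%) absent.

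For 3 of the 7 genes, no number was absent between the regions on either side. bli-1 (C09G5.6), a strut collagen gene on chromosome II at 10708960 to 10712156, lay between regions 343 and 344. The nearer of these was 831 bp away, in col-80 and dph-2, where 1658 reads over a control level of 1196 gave a fold of 1.39. bli-2 (F59E12.12), also a strut collagen gene, at 5651394 to 5652434 on II, lay between regions 277 and 278, which were 64048 and 37866 bp away in lys-8 and ndub-5. sqt-1 (B0491.2), alleles of which can give squat or roller worms, at 11336693 to 11337837 on II, lay between regions 353 and 354, the nearer 6059 bp away in nduf-11. As far as the numbers follow the genome, no region of the numbered set, kept or left out, lay in these 3 genes.

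For the other 4 genes, numbers were absent in the stretch that holds the gene. rol-6 (T01B7.7), known for the dominant roller allele used as a transformation marker, lies at 8733050 to 8734239 on II. Its neighbours, regions 309 and 312 in rpl-5 and mak-1, were 175016 bp apart, with 2 numbers absent. dpy-17 (F54D8.1), on III at 5107330 to 5108491, had 2 numbers absent in a stretch of 180549 bp between larp-1 and emb-8. sqt-3 (F23H12.4), which works with dpy-17 in shaping the body, lies on V at 12352745 to 12354320. There 1 number was absent over 315622 bp, between the region of lon-3 and ogdh-2 and that of lgmn-1. sqt-2 (C01B12.1), at 23325 to 24458 near the end of II, came before the first region of that chromosome, and 4 numbers were absent between the last region on I and that one. In these 4 genes a numbered region that was left out of the list cannot be told apart from no region.

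**Figure D4:**
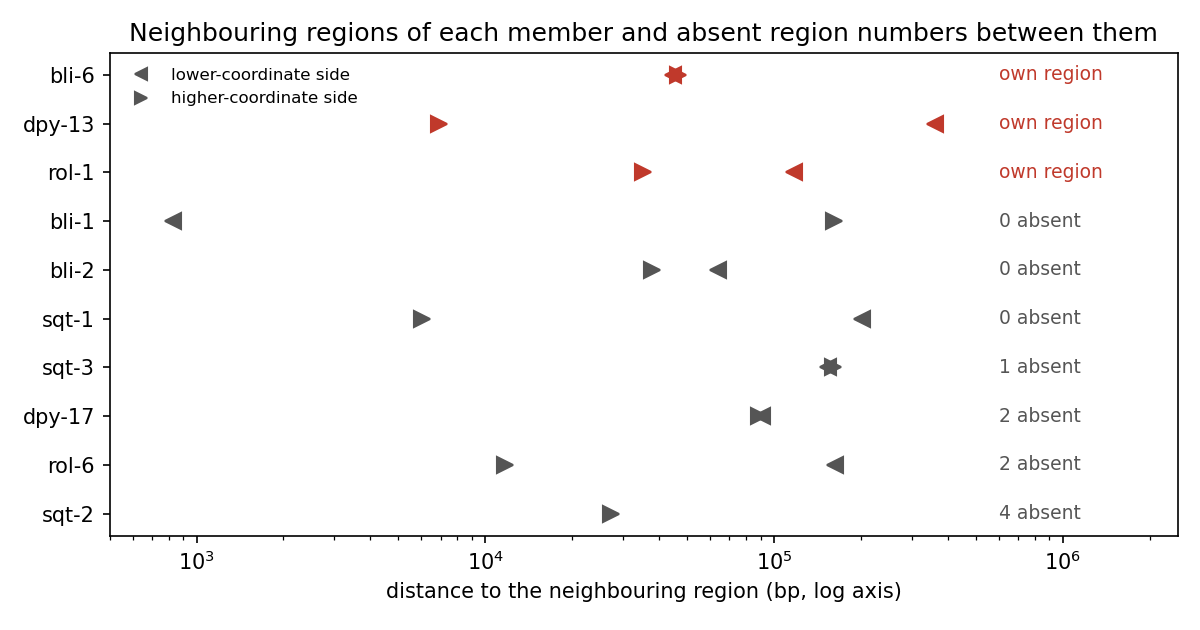
Distance in bp (x axis, log scale) from each of the 10 genes to the neighbouring region on the lower-coordinate side (left-pointing triangles) and on the higher-coordinate side (right-pointing triangles). Genes with a region of their own are red. For the others the text at the right gives how many region numbers are absent between the neighbours, 0 for bli-1, bli-2 and sqt-1 and 1 to 4 for the rest.

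The remaining cuticle collagen genes give the setting. Of 11 other shape-named collagen genes, 3 carried a region (27.3%), beside 30% of the 10 genes above. Of the 155 genes of the col class, 73 carried a region (47.1%). The share of all protein-coding genes was 4.77%. With a −log10 q of at least 5, the other shape-named genes fell to 1 of 11 (9.09%). The same count was left without regions over more than 1 protein-coding gene. Under both filters the 10 genes kept bli-6, rol-1 and dpy-13 (30%). The col class stood at 39.4% and 37.4% under these filters, and all protein-coding genes at 2.9% and 4.24%. With a fold of at least 2 the counts were 1 of the 10 genes (10%) and 0 of the 11. The shares were then 9.68% of the col class and 2.98% of all protein-coding genes. No test was made of any of these differences, and the lists were compiled with results of these data known. The median fold was 1.68 over the 3 regions of the 10 genes, 1.69 over the 3 regions of the other shape-named genes and 1.66 over the 75 regions of the col class. Over all 1207 regions it was 2.10. The control level differed along with the fold, with medians of 532, 377 and 322 reads in these 3 collagen groups and 23.0 reads over all regions, and its part in the lower folds was not tested. Collagen genes also resemble each other in sequence, and the sources used here do not say how reads shared between them were assigned.

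Among the other shape-named genes, dpy-5, a further collagen of the annuli, was most like dpy-13 and bli-6 in coverage. Its region on chromosome I held 754 reads (interval 701 to 810) over 442. Its fold was 1.70, at a −log10 q of 38.9. dpy-4 had one of the lowest folds of the list, 1.17 from 440 reads over 377, ranking 1202nd. Its region also shares 1 base or more with atln-2. lon-3, a collagen gene that affects body length, had 46 reads over 26.8 and a fold of 1.69. Its region also shares 1 base or more with ogdh-2. The 6 furrow collagen genes, dpy-2, dpy-3, dpy-7, dpy-8, dpy-9 and dpy-10, carried 0 regions, beside 4.77% of all protein-coding genes. At that share, 6 genes would mostly show none. The share was higher in cuticle collagen genes, 47.1% in the col class and 28.6% in all shape-named genes, the 6 included. The furrow subgroup was set apart after its values were seen, and its difference from the other collagens was not tested. For dpy-7 and dpy-9, 1 region number was absent in the stretch that holds the gene, so a region left out of the list cannot be told apart from none there.

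Within the col class, the regions with most reads reached further than those of the 10 genes. col-93 had 3128 reads over 2200 (fold 1.42), col-94 had 2999 (fold 1.64) and col-139 had 2679 (fold 1.67). The pileup of dpy-13 was exceeded by 18 of the 75 col class regions, that of bli-6 by 24 and that of rol-1 by 58. The fold of dpy-13 was exceeded by 14 of them. The highest folds of the class, 5.16 in col-162, 3.51 in col-135 and 3.31 in col-34, came from few reads, 117, 69 and 47. col-34 is also the neighbour of dpy-13, with its region 6941 bp away. Its control level was 13.5 reads, the lowest of the list, against the 532 of dpy-13.

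The tagged gene, mstr-1 (F22D6.2), carried a region with 88 reads (interval 70.6 to 108) over 38.3. Its fold of 2.26 was above those of all 3 shape-named members with a region, though the fold interval of its pileup, 1.82 to 2.78, included the 2.03 of dpy-13. The control level of mstr-1 was also lower than theirs. Among regions of similar coverage mstr-1 ranked 68th by fold of 261, whose median was 1.94. The ranks of dpy-13, bli-6 and rol-1 were 6th of 67, 20th of 68 and 50th of 92.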

How the data were processed

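RIP-seq covered tagged (WD656) and N2 worms with their inputs, 8 samples. The submitters' processing notes name STAR and deepTools with no version, and the sources used here do not name the peak caller, its control, the build or the rule for strain-specific regions. The deposited table has no header and no columns per library. Its first 10 columns have the narrow peak layout of MACS2. The authors' values are a score, a fold (ratio over control), a −log10 p-value and a −log10 q-value per region. Column 11, deposited without a label, served only as a filter.

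Starts were raised by 1 to count positions from 1. Pileup k and control c were solved from fold = (k + 1) / (c + 1) and the Poisson probability of more than k reads. This gave whole pileups (within 0.02) for 96.6% of regions, and the solving was tested on simulated data. That the caller used these formulas is an inference. The exact 95% Poisson intervals cover counting error only and take each read as an independent count. Reads without molecular identifiers can be copies, and the intervals would then be too narrow. A region was assigned to each RefSeq gene span of WBcel235 with which it shared 1 base or more.

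Named genes were the 10 members, genes sharing a region with them, other shape-named collagens and processing enzymes with a region, the 3 col class genes highest by fold and by pileup, and mstr-1. Neighbouring genes, genes without a region and the furrow subgroup were added after values were seen. Members and lists were chosen with earlier results of these data known. Planned protein and promoter descriptions were not run, as no sequence was used here. Alternatives were the overlap rule, stricter −log10 q or fold, regions over several genes, column 11, the pseudocount, the region per gene and the window of control levels. Software was Python 3.11.15 with scipy 1.17.1, numpy 2.4.6, pandas 2.3.3 and matplotlib 3.10.9.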

Additional observations from a re-analysis of the deposited data

How the results depend on the processing

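The 3 genes with a region, bli-6, rol-1 and dpy-13, were the same when most of the region or its summit had to lie inside the gene, when the −log10 q had to be at least 5, and when regions over more than 1 protein-coding gene were left out. With a fold of at least 2 only dpy-13 remained, 1 gene (10%). At that fold 15 of the col class (9.68%), 0 of the other shape-named genes and 596 of all protein-coding genes (2.98%) remained. With column 11 above 0, bli-6 and dpy-13 remained (20%). That filter left 31.6% of the col class, 18.2% of the other shape-named genes and 278 protein-coding genes (1.39%). A −log10 q of at least 5 left 1 of the other shape-named genes, dpy-5 (9.09%), and 579 protein-coding genes (2.9%). Leaving out regions over several genes also left 1, dpy-5, and 848 protein-coding genes (4.24%). A pseudocount of 0 changed the 3 pileups by less than their intervals, but gave whole pileups in only 3.98% of regions. With a factor of 2 around the control level, 8 of 101 regions had a higher fold than dpy-13, 25 of 100 than bli-6 and 87 of 154 than rol-1. No paired analysis was possible because the one deposited list carries no per-library values, and no replicate could be left out.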

Other observations

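Collagens are modified, trimmed and crosslinked by enzymes before they form cuticle. Of 12 genes listed under collagen processing and crosslinking, 5 (41.7%) carried a region, beside 4.77% of all protein-coding genes. Whether all 12 encode enzymes that act on cuticle collagen was not examined. These 12 genes are longer, with a median span of 5017.5 bp against 2005 bp, and a longer gene has more bases that a region can share. The part of length in the count was not tested. The 5 were phy-2 and dpy-18, which encode prolyl 4-hydroxylase subunits, pdi-2, which encodes their protein disulfide isomerase partner, bli-4, a proprotein convertase gene, and mlt-7, a peroxidase gene. phy-2 had 3 regions with folds of 3.11, 3.73 and 3.13 from 44, 53 and 58 reads. All were above the folds of dpy-13, bli-6 and rol-1 and all at low coverage. The control level of the regions with 44 and 53 reads was 13.5, the lowest of the list, and that of the other 17.9. pdi-2 had 2 regions at a coverage near that of the collagens, with folds of 1.23 and 1.26 from 536 and 419 reads. dpy-18 had a fold of 1.90 from 30 reads, bli-4 one of 1.70 from 42 reads and mlt-7 one of 1.93 from 27 reads. Of the 5 genes, only phy-2 had a −log10 q of at least 5, with 9.02, 14.1 and 11.9 in its regions. The values were 3.91 and 3.80 in pdi-2, 1.86 in dpy-18 and 1.75 in both bli-4 and mlt-7. The share of 41.7% therefore rests mostly on weakly supported regions. That filter left 2.9% of all protein-coding genes. The genes bli-3, bli-5, dpy-11, dpy-31, phy-3, tsp-15 and kpc-1 carried none.

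The column deposited without a label held 1 for dpy-13 and bli-6 and 0 for rol-1. It was above 0 in 50 of 75 col class regions and in 299 of all 1207 regions (24.8%). The sources used here do not say what it counts.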
